A study of Drosophila melanogaster with 8 samples.

Results

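Whole wandering larvae that over-express the Hsp90 chaperone as an Hsp90GFP fusion were compared with wild-type larvae, gene by gene. A gene was taken when it had a row of its own in the authors' table of this comparison, the row was marked OK for testing, and at least 5 FPKM was listed in either group. FPKM, a count of fragments scaled to the length of the gene and to the mapped fragments of the group, is a level per length, so levels of different genes can be set side by side. These conditions gave 7686 genes of the 15904 rows. At the edge of the minimum, et (4.38 FPKM in WT and 5.00 in Hsp90GFP) and CG42596 (5.01 and 3.39) were inside, and CG7886 (5.00 and 4.70, before rounding just under the minimum) and CG10628 (5.00 and 4.16) were outside.

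The study sequenced RNA of wandering larvae of the last instar of Drosophila melanogaster in 4 genotypes, with 2 libraries of 5 whole larvae each. WT was labelled Oregon R+, a wild-type laboratory strain, with no transgene named. The Hsp90GFP larvae were labelled w1118; Sp/CyO';hsp90GFP, and the series names them as over-expressing Hsp83; w1118 is a white-eyed stock, and Sp and CyO are a marker and a balancer of the second chromosome. Larvae with hsromega66, a near-null allele of a non-coding RNA gene (w1118; Sp/CyO';hsromega66), and those labelled as the recombinant (w1118; Sp/CyO';hsp90GFPhsromega66) are given below only side by side. The sources used here do not say which promoter drives the Hsp90GFP construct, where it is inserted, which sex the larvae were or how many lines stand behind each genotype. The genotype and the stock changed together, so their parts in any difference from WT cannot be told apart.

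Hsp90, encoded by Hsp83 in the fly, is an abundant cytoplasmic chaperone that works with co-chaperones to fold and hold kinases, steroid receptors and other client proteins. The wandering larva is the stage between feeding and the puparium: pulses of ecdysone, the moulting hormone, act on the salivary glands, which store and release glue, and on the epidermis, which hardens and tans the cuticle. The gut and fat body of the same larvae express digestive enzymes, detoxification enzymes, storage proteins and immune peptides.

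The authors' tables give each group 1 value per gene for both libraries together, so no spread between libraries stands beside any level and the read depth is unknown. The group FPKM summed to 938839 in WT and 893055 in Hsp90GFP, with 11159 and 11176 genes at 1 FPKM or more. Markers of the tissues of a whole larva were present in both groups: 23 of 28 muscle rows, 10 of 11 salivary glue rows, 29 of 31 gut serine protease rows, 14 of 15 hemocyte rows and all 20 imaginal disc rows reached 1 FPKM in each. A gene is called here when its q was under 0.05 in the authors' deposited table. These RNAs came from whole animals, so fewer cells of a type and less RNA per cell cannot be told apart.

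Against WT, 115 of the 7686 genes were called, 69 higher and 46 lower in Hsp90GFP, which is 1.50% in either direction, 0.898% higher and 0.598% lower. Most genes lay close to WT. Over all 7686 genes the median log2 ratio, taken throughout as log2((Hsp90GFP + 1)/(WT + 1)), was -0.05, with 25th and 75th percentiles of -0.25 and 0.17. The split by direction depended on the test: adjustment of the authors' p-values within this table left 23 higher and 22 lower, and a z test on ratios centred on their median gave 19 and 30. Differences had to be large to be called. The smallest ratio called was 3.18-fold among higher genes and 3.35-fold among lower genes, and only 54 of 126 genes at least 4-fold higher and 39 of 108 at least 4-fold lower were called. Dividing each log2 ratio of FPKM by the deposited test statistic gave an implied standard error with a median of 0.88 over 7619 genes. This takes the statistic to be a log2 ratio over its standard error. Its scale is not stated, so the implied standard errors here and below are a rough guide only. At an unadjusted p under 0.05 in the authors' deposited table there were 284 genes, and called genes had q values of 0.00144 to 0.0487 in the authors' deposited table. The share called rose with the level, from 0.556% of genes whose larger value lay between 5 and 10 FPKM to 4.69% of those between 100 and 1000 FPKM, and was 1.71% of the 175 genes above 1000 FPKM.

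**Figure D1:**
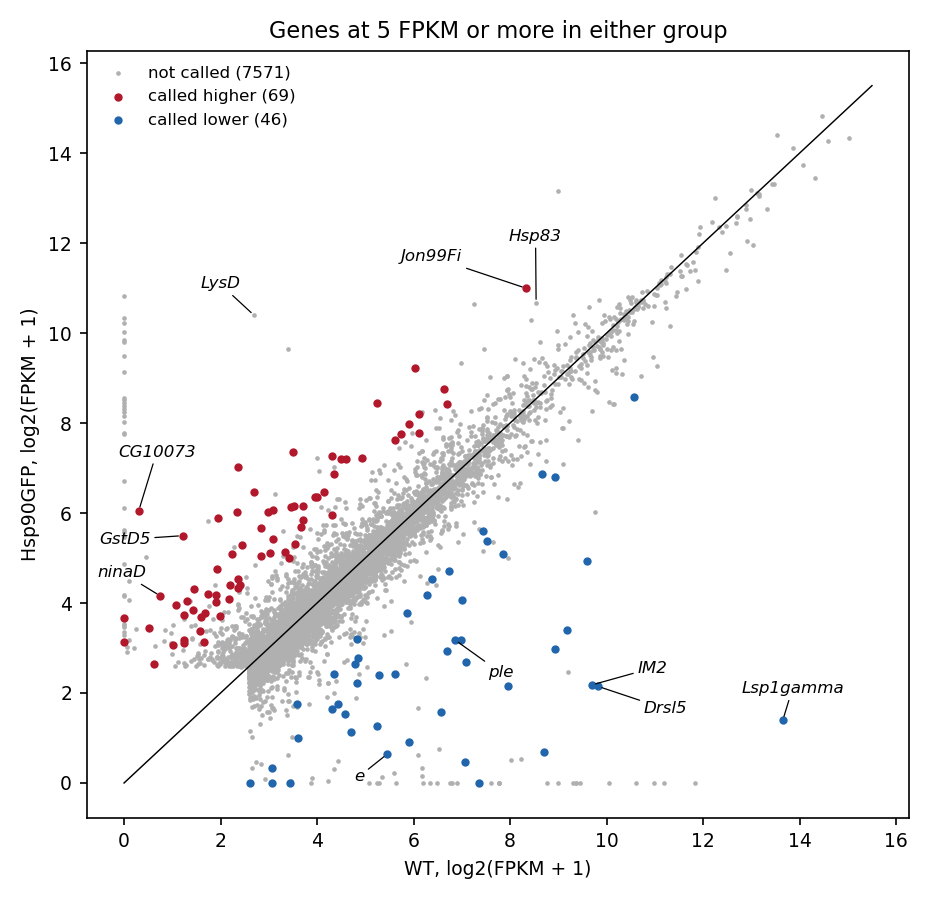
Each point is 1 gene, with its level in WT on the x axis and in Hsp90GFP on the y axis, both as log2(FPKM + 1) and 1 value per group; the line marks equal levels, and the colours mark the 69 genes called higher and the 46 called lower. Most genes lie near the line, the called genes lie well away from it, and grey points on the axes are genes listed at 0 in 1 group, many of them small RNAs.

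Hsp83 (dm6 3L 3192969 to 3197631, a span listed also for CG14966) was at 371 FPKM in WT against 1616 FPKM in Hsp90GFP. It was at 427 FPKM in hsromega66 and 968 FPKM in the libraries labelled recombinant. The libraries labelled with the construct were thus the high ones, and RNA of the resident gene and of the construct cannot be told apart in this value. The log2 ratio of 2.12, with an implied standard error of 0.99, lay just outside the call (q = 0.0538 in the authors' deposited table). Hsromega (3R 21296127 to 21317836), the non-coding RNA of the omega speckles, was at 236 FPKM in WT against 273 FPKM in Hsp90GFP, with no call. It was at 77.9 FPKM in the libraries labelled recombinant against 0.767 FPKM in hsromega66, which goes against their label.

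The genes around Hsp83 were also high in Hsp90GFP. Hsp83 sat inside the longest run of neighbouring genes that were each at least 1.5-fold above WT, small RNAs left aside. The run held 14 genes over 59.7 kb, from CG32280 to CG11505, and the next longest run of higher genes held 5. Over all 7408 genes that are not small RNAs, 8.42% were at least 1.5-fold higher. These neighbours were looked at after their values were seen, apart from CG32284, which is among the largest rises.

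The run had a median log2 ratio of 1.10, a ratio of 2.14, and without Hsp83 it was 1.07. Only 2 of the 14 genes were called, CG32284 (10.3 FPKM in WT against 164 FPKM in Hsp90GFP) and CG14964 (2.72 and 15.3 FPKM; not called under the adjustment within the table), so the run rests mostly on genes that singly missed the threshold. Its highly expressed genes included CG17737, named eIF1 by RefSeq and coding for a translation initiation factor, at 389 FPKM in WT against 653 FPKM in Hsp90GFP. CG32276 was at 503 and 1059 FPKM, and CG12034, named nSMase for a neutral sphingomyelinase, was at 20.1 and 40.9 FPKM. These genes have no named function in common with Hsp83. The remaining genes of the run were CG32280, CG14963, CG14957, CG14965, CG14966, gry, CG14967 and CG11505, with log2 ratios between 0.60 and 1.62.

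In the libraries labelled recombinant, the other group labelled with the construct, the median of the same 14 genes against WT was 0.82, and in hsromega66 it was 0.01. Single genes departed from those medians: CG14957 was at 54.7 FPKM in WT, 110 in Hsp90GFP, 5.80 in hsromega66 and 199 in the libraries labelled recombinant, and CG32284 was also high in hsromega66 (126 FPKM). The 5 other genes that start within 45 kb of the start of Hsp83 (BtbVII, NDUFS3, pfk, rasp and CG17746) had log2 ratios from -0.36 to 0.05. A row that merges CG42494 with Girdin, which is not counted among the 7686 genes, lies inside the run and was called higher, at 9.98 FPKM in WT against 54.4 FPKM in Hsp90GFP.

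**Figure D2:**
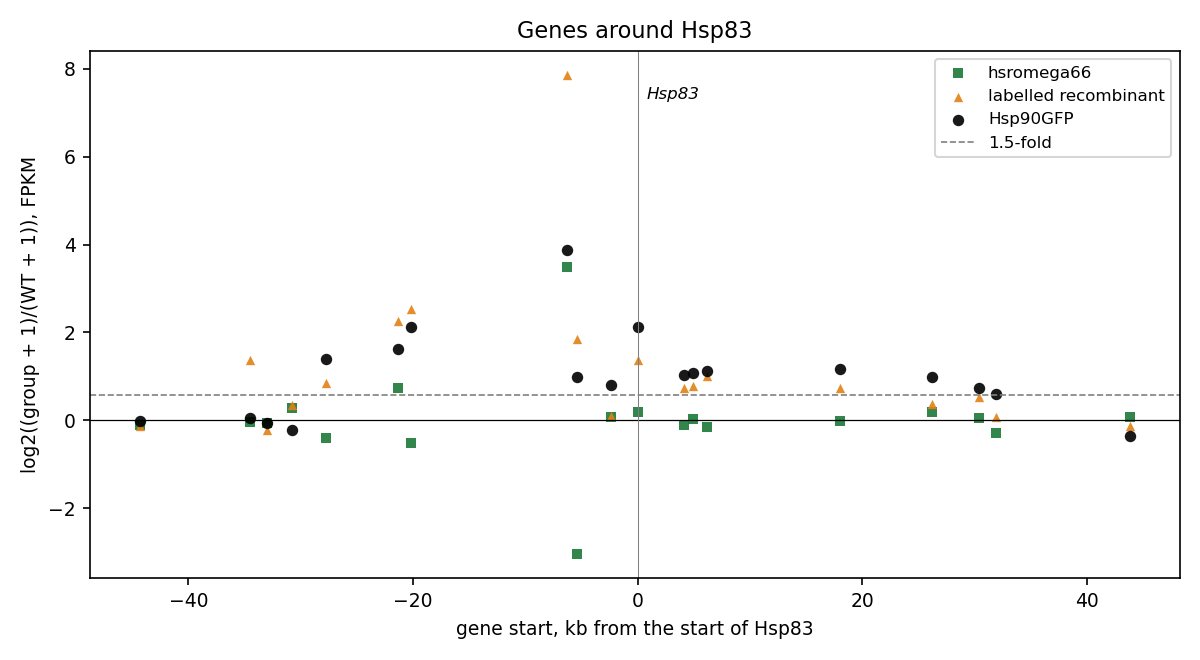
Log2 ratios to WT (y axis, FPKM + 1) of the genes whose rows start within 45 kb of the start of Hsp83, by distance in kb along 3L (x axis), for Hsp90GFP, hsromega66 and the libraries labelled recombinant; small RNAs and merged rows are left out. The 14 genes of the run lie above the dashed 1.5-fold line in Hsp90GFP with a median of 1.10, while hsromega66 has a median of 0.01 and the 5 outer genes lie near 0.

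Heat shock genes had no call above the minimum. None of the 21 genes of the Hsp90 and heat shock list was called, and their median log2 ratio was -0.10 beside -0.05 over all genes. The small heat shock gene Hsp23, the list's most abundant in WT, was at 1995 FPKM in WT against 702 FPKM in Hsp90GFP. Counting only rows of single genes, 5 that adjoin on 3L (Hsp67Bc, Hsp26, CR43481, Hsp23 and Hsp27) were each at least 1.5-fold below WT with no call. A row there that merges Hsp22 with Hsp67Bb, not counted among the 7686 genes, lay the other way, at 26.2 FPKM in WT against 72.2 FPKM in Hsp90GFP, and was not called. Hsp27 was at 296 and 100 FPKM, and Hsp67Bc at 90.3 and 25.9 FPKM. These were named after their values were seen, as was stv, a co-chaperone of Hsp70, with a log2 ratio of 1.03 and no call. Below the minimum, Hsp70Ba, of the near-identical heat-inducible Hsp70 copies, was called higher, listed at 0 in WT and at 0.535 FPKM in Hsp90GFP, and Hsp70Bb, at 0.245 and 1.36 FPKM, was not called.

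The co-chaperones that work directly with Hsp90 lay close to WT. All 12 had log2 ratios from -0.24 to 0.16, with no call, and CG16817, the most abundant in WT, was at 224 FPKM in WT against 189 FPKM in Hsp90GFP. Among 8 subunits of the TCP-1 ring, a chaperonin for actin and tubulin, ratios ran from -0.30 to 0.04, led in level by CG7033 at 69.6 FPKM in WT against 71.7 FPKM in Hsp90GFP. The 33 proteasome subunits had a median of -0.02, which changed sign when ratios were centred on the median of all genes, and the subunit Prosbeta5 was at 236 and 242 FPKM. No gene of these 3 lists was called, beside 1.50% of all genes, a share at which lists this short would hold few calls or none.

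Secreted peptides of the Toll immune response formed the largest group of falls among the 47 lists. Of 16 genes of that list with rows of their own, 12 reached the 5 FPKM minimum, 7 fell, none rose, and all 12 lay below WT, with a median log2 ratio of -5.21. Some, such as IM1, IM2 and IM23, met the minimum through WT alone, which by itself places them below WT. The called share of all genes on the lower side was 0.598%. All 7 were also called when the authors' p-values were adjusted by Benjamini-Hochberg within this table alone, under which 45 of the 115 calls remained. The Bomanins, named IM or CG in the files, are short peptides induced through Toll and needed for resistance to Gram-positive bacteria and fungi. IM2 (BomS2) was at 824 FPKM in WT, 3.52 in Hsp90GFP, 12.4 in hsromega66 and 11.0 in the libraries labelled recombinant, and it fell 234-fold in Hsp90GFP with an implied standard error of 1.24 on the log2 scale. IM3 (BomS3) was at 767 FPKM in WT and 29.7, 67.9 and 57.0 FPKM in the same 3 groups. IM1 (BomS1) was at 248 FPKM in WT and at 3.47, 14.02 and 45.8 FPKM in them. All 3 were low in every genotype but WT.

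IM23 (BomBc1), at 163 FPKM in WT, was listed at 0 both in Hsp90GFP and in the libraries labelled recombinant. CG16836 (BomT2) fell from 103 to 6.63 FPKM. CG43202 (BomT1), which the list did not match by the symbol in the files and which is not among its 12, fell from 5.10 FPKM to a listed 0. The Bomanin genes lie together on 2R: 10 adjoining genes from CG43202 to CG15068, spanning 8.96 kb, were each at least 1.5-fold below WT with a median log2 ratio of -4.21, which was the longest run of lower genes; of all genes that are not small RNAs, 6.76% were at least 1.5-fold lower. The members of that cluster that were not called, such as CG15067 at 91.7 FPKM in WT against 0.699 FPKM in Hsp90GFP, were looked at after their values were seen.

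The fall was not limited to that cluster. IM4 and IM14, named Dso1 and Dso2 by RefSeq, code for the Daisho peptides, which are also induced through Toll, and lie elsewhere on 2R. IM4 was at 485 FPKM in WT, 6.87 in Hsp90GFP, 26.2 in hsromega66 and 133 in the libraries labelled recombinant. IM14 was at 577, 9.51, 151 and 170 FPKM in the same order, so Hsp90GFP was the lowest of the 4 for both. Between Hsp90GFP and hsromega66, IM14 and IM23 were called different (q = 0.00472 and 0.0191 in the authors' deposited table), while IM1, IM2, IM3, IM4 and CG16836 were not (q from 0.315 to 0.810 in the authors' deposited table).

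Of the 3 drosomycin-family genes, which code for antifungal peptides, Drsl5 fell from 903 FPKM in WT to 3.43 FPKM in Hsp90GFP. It was at 629 FPKM in hsromega66 and at 5.88 FPKM in the libraries labelled recombinant, so it was low where the label names the construct, and Hsp90GFP differed from hsromega66 (q = 0.00565 in the authors' deposited table). The fall of Drsl5 was not called under the adjustment within the table. Drs, drosomycin itself and the most abundant of the family in WT, was at 1311 FPKM in WT against 672 FPKM in Hsp90GFP, not called.

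Among the immune lists outside these families, Tep1 and Spn100A were the called genes, both lower, beside 0.598% of all genes called lower. Of 7 genes on the list of Imd-type antimicrobial peptides, none was called, with a median of 0.37. Mtk, the most abundant in WT, was at 40.2 FPKM in WT against 26.8 FPKM in Hsp90GFP. Among 23 recognition genes, Tep1, a thioester protein that coats microbes, fell from 26.5 to 5.30 FPKM, and PGRP-SC2, a peptidoglycan amidase with the largest WT level, was at 213 and 198 FPKM. Of 11 serpins, inhibitors of serine proteases, Spn100A fell from 19.4 to 4.36 FPKM, while Spn88Eb, the most abundant, was at 51.6 and 64.1 FPKM. The falls of Tep1 and Spn100A were not called under the adjustment within the table. Neither of the Turandot stress peptides was called, and TotA was at 1061 FPKM in WT against 1305 FPKM in Hsp90GFP.

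None of 13 hemocyte and melanisation genes was called. He, which codes for the blood cell surface protein Hemese and leads the list in WT, was at 94.4 FPKM in WT against 45.9 FPKM in Hsp90GFP. The prophenoloxidases of crystal cells, named after their values were seen, lay the other way: PPO1 was at 70.8 and 304 FPKM and PPO2 at 56.0 and 191 FPKM.

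The largest single fall was in a storage protein. Lsp1gamma (3L 66430 to 68995), a subunit of larval serum protein 1 made by the fat body, was at 12858 FPKM in WT against 1.62 FPKM in Hsp90GFP, and at 2.099 FPKM in hsromega66 and 8541 FPKM in the libraries labelled recombinant. It was thus low in both single genotypes. The other 10 genes of the serum and fat body list were not called, with Obp99b, the most abundant in WT, at 14995 FPKM in WT against 17849 FPKM in Hsp90GFP, and the list's median was -0.10. Near Lsp1gamma at the end of 3L, the receptor gene mthl8, named after its values were seen, was called lower, with 7.37 FPKM in WT and a listed 0 in each of the other genotypes.

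Enzymes that colour and harden the cuticle fell at steps from tyrosine to dopamine conjugates. In insects ple (tyrosine hydroxylase) makes dopa, Ddc makes dopamine, b (black) supplies beta-alanine and e (ebony) joins beta-alanine to dopamine. The gene e was at 42.8 FPKM in WT against 0.562 FPKM in Hsp90GFP, and at 73.3 FPKM in hsromega66 and 0.925 FPKM in the libraries labelled recombinant. It fell 76.2-fold in Hsp90GFP, with an implied standard error of 1.17 on the log2 scale. For ple the levels were 115, 8.07, 201 and 11.3 FPKM in the same order. For b they were 27.4, 3.63, 26.6 and 1.38 FPKM.

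All 3 were low in both groups labelled with the construct and not in hsromega66, and each differed between Hsp90GFP and hsromega66 (q = 0.00144 for each in the authors' deposited table). They stayed called under the adjustment within the table, and they were the only called genes among 19 tanning and pigment genes, whose median log2 ratio was -0.25. Ddc, named after its values were seen, was at 153 FPKM in WT against 112 FPKM in Hsp90GFP, with no call, and yellow-d2, the list's most abundant gene in WT, was at 218 and 194 FPKM. The yellow family gene yellow-c, also named afterwards, was at 75.9 and 4.07 FPKM without a call (q = 0.519 in the authors' deposited table).

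Genes that follow ecdysone in the salivary gland lay below WT. Of 7 late genes of the Eig71E cluster that reached the minimum, Eig71Ea fell from 48.2 to 4.37 FPKM and Eig71Eg from 22.8 to 1.91 FPKM, all 7 lay below WT, and the median was -3.19 (-5.38 and -2.01 with pseudocounts of 0.1 and 5 FPKM). Neither fall was called under the adjustment within the table. Eig71Ea was at 9.05 FPKM in hsromega66 and 6.04 FPKM in the libraries labelled recombinant, and Eig71Eg at 19.6 and 0.466 FPKM. Of the cluster's rows, 7 reached 1 FPKM in WT and 3 in Hsp90GFP. Most of the 7 thus met the minimum through WT alone, which by itself places them below WT. The 7 summed to 1498 FPKM in WT against 1177 FPKM in Hsp90GFP, and their log2 ratios reached up to -0.23. None of the 10 glue genes, which make the secretion that fixes the puparium, was called. All 10 lay below WT with a median of -0.77, and Sgs7, the most abundant, was at 33244 FPKM in WT against 20821 FPKM in Hsp90GFP.

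No gene of the ecdysone receptor and early response list was called among 14, of which 12 lay below WT, with a median of -0.42. ImpL3, the most abundant in WT, codes for lactate dehydrogenase and was at 214 FPKM in WT against 114 FPKM in Hsp90GFP. EcR, the receptor, and Eip75B, an early nuclear receptor gene, both named after their values were seen, were at 62.9 and 66.6 FPKM and at 32.4 and 37.2 FPKM. They were the 2 genes of that list above WT. On the other side, 3 of the 14 were at least 2-fold lower, down to a log2 ratio of -1.88. Genes of ecdysone synthesis numbered 10, with no call, a median of -0.16, and Npc1a, a sterol transporter with the largest WT level, at 36.7 FPKM in WT against 35.4 FPKM in Hsp90GFP. Of 9 juvenile hormone genes, JhI-26, a juvenile hormone-inducible gene, rose from 14.6 to 80.5 FPKM (not called under the adjustment within the table), while the hormone's epoxide hydrolase Jheh2, the most abundant, was at 53.8 and 72.9 FPKM.

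**Figure D3:**
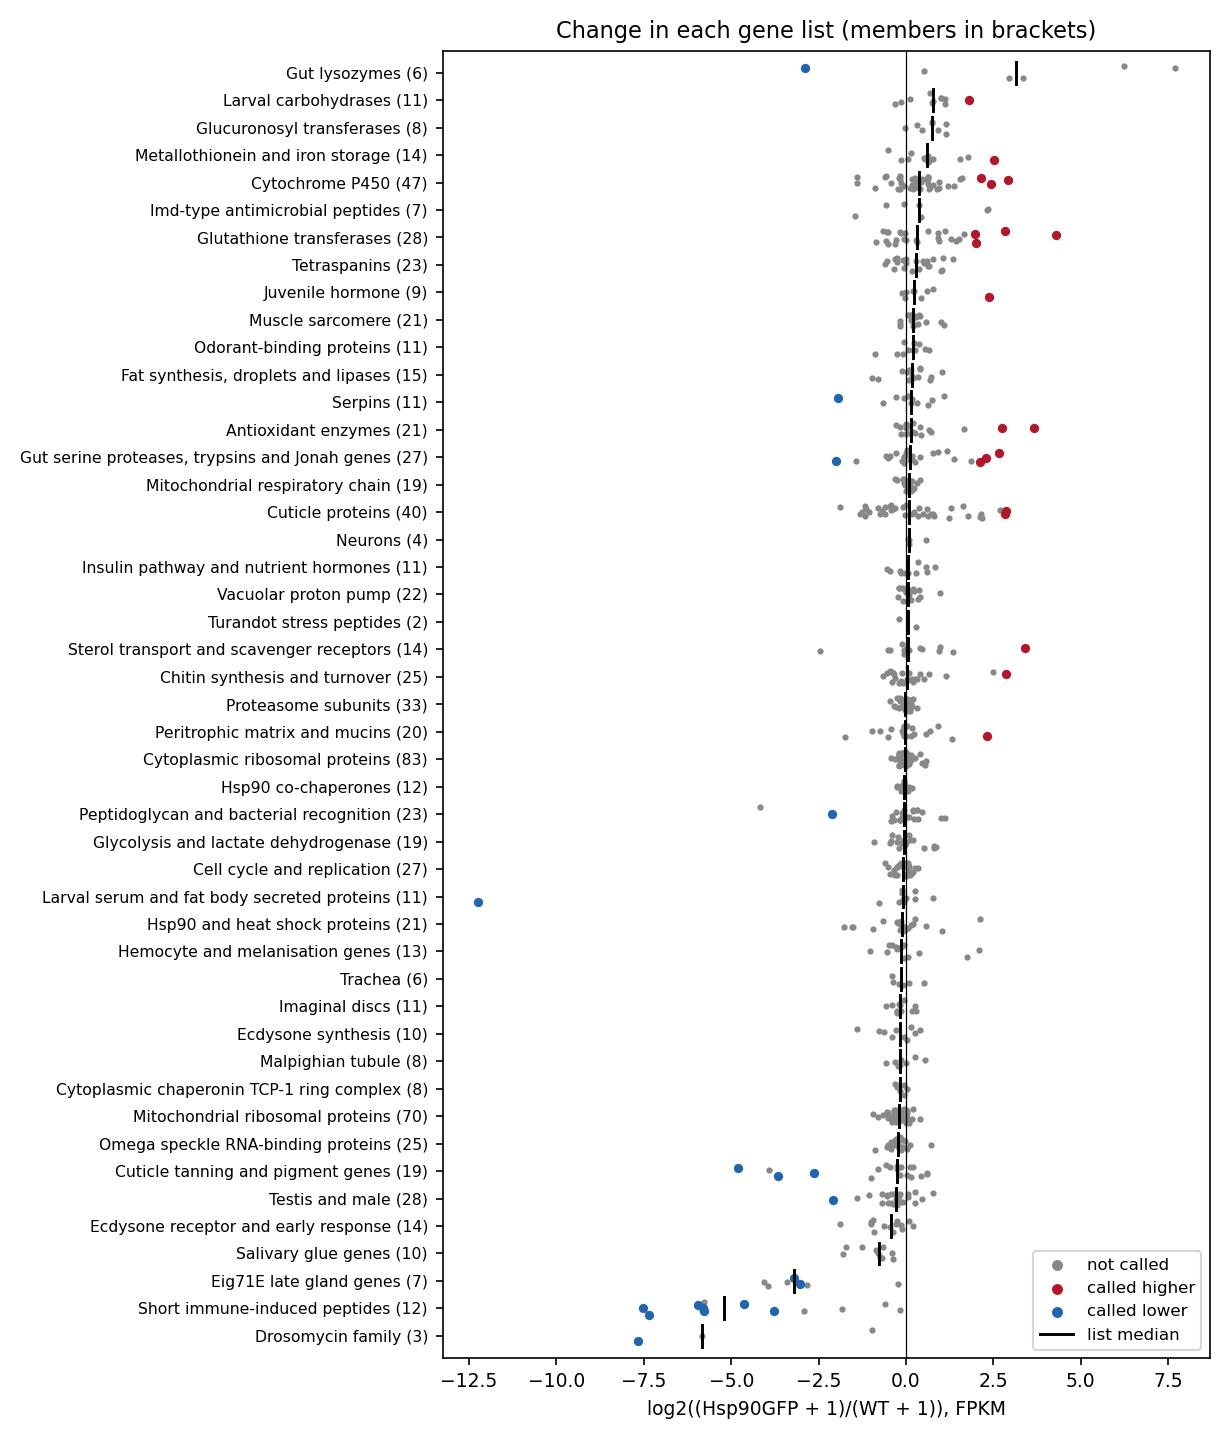
Log2((Hsp90GFP + 1)/(WT + 1)) of every member of the 47 gene lists, 1 row per list, with called genes in colour and the list median as a black bar. Short immune peptides (median -5.21), Eig71E genes (-3.19) and drosomycins (-5.84) lie to the left, gut lysozymes (3.16) to the right, and most lists are centred near 0.

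Enzymes that neutralise foreign compounds stood among the rises, and glutathione transferases had more of them than any other of the 47 lists. Of 28 glutathione transferases, which attach glutathione to toxic molecules, 4 rose and none fell, with a median of 0.31; of all genes, 0.898% were called higher. GstD2 was at 4.46 FPKM in WT against 38.0 FPKM in Hsp90GFP, and at 18.8 FPKM in hsromega66 and 36.2 FPKM in the libraries labelled recombinant. GstD5 was at 1.32 FPKM in WT, 44.1 in Hsp90GFP, 1.29 in hsromega66 and 1.26 in the libraries labelled recombinant, so Hsp90GFP was the high one of the 4 (q = 0.0185 against hsromega66 in the authors' deposited table). GstE6 rose from 4.32 to 20.1 FPKM and GstT4 from 52.1 to 214 FPKM. Of the 4, 1 (GstD2) was called under the adjustment within the table. The GstD genes are close copies in a cluster on 3R, and how the authors' counting split reads between them is not given.

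Cytochrome P450 enzymes oxidise foreign compounds, fatty acids and hormones. Of 47 members, 3 rose and none fell, 34 lay above WT, and the median was 0.37; over all genes 43.6% lay above WT. Cyp28a5 rose from 12.1 to 70.1 FPKM and was at 57.9 FPKM in hsromega66 and 97.1 FPKM in the libraries labelled recombinant. The adjoining genes Cyp309a1 and Cyp309a2 on 2L rose from 12.1 to 56.9 FPKM and from 0.441 to 9.95 FPKM. Their other levels were not alike, since Cyp309a1 was at 71.8 and 28.6 FPKM in hsromega66 and the libraries labelled recombinant, and Cyp309a2 at 0.859 and 0.0868 FPKM. Of the 3 rises, 1, that of Cyp28a5, was called under the adjustment within the table. Below the minimum, Cyp4e3 was called higher, at 0.570 FPKM in WT against 4.30 FPKM in Hsp90GFP. Cyp12d1-d, also below it, was called lower, at 1.86 FPKM in WT and a listed 0 in each of the other genotypes. The adjoining Cyp12d1-p was at 3.97 FPKM in WT against 4.96 FPKM in Hsp90GFP, not called, and how reads were split between these neighbours is not given. These genes below the minimum were named after their values were seen.

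Among 21 antioxidant genes, the peroxiredoxins Prx2540-2 and Prx2540-1, which remove peroxides, rose from 4.08 to 63.9 FPKM and from 1.47 to 15.6 FPKM. They are near-identical neighbours on 2R, so the share of reads between them is uncertain, and of the pair only Prx2540-2 was called under the adjustment within the table. Prx2540-2 was at 12.9 FPKM in hsromega66, below Hsp90GFP (q = 0.00989 in the authors' deposited table). Of 14 metallothionein and iron storage genes, MtnB, a metal-binding protein of the midgut, rose from 19.3 to 116 FPKM, 12 lay above WT, and the median was 0.62. MtnB was at 160 FPKM in hsromega66 and 181 FPKM in the libraries labelled recombinant, so WT was the low group. MtnA, the most abundant, was at 559 FPKM in WT against 862 FPKM in Hsp90GFP, not called. None of 8 glucuronosyl transferases was called, with a median of 0.74 and Ugt at 26.2 and 25.5 FPKM.

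Digestive genes of the gut changed in both directions. Of 27 trypsins and Jonah serine proteases, 3 rose and 1 fell, with a median of 0.11. Jon99Fi was at 321 FPKM in WT against 2041 FPKM in Hsp90GFP, against 1002 in hsromega66 and 438 in the libraries labelled recombinant. Jon74E rose from 29.7 to 149 FPKM, with 9.33 FPKM in hsromega66 and 402 FPKM in the libraries labelled recombinant, and it differed from hsromega66 (q = 0.00144 in the authors' deposited table). The trypsin betaTry rose from 97.6 to 430 FPKM. Jon99Ciii, a near neighbour in name and family of Jon99Fi, fell from 1513 to 380 FPKM. Of these, 1 (Jon74E) was called under the adjustment within the table. Trypsin and Jonah genes include close copies, so single values are uncertain.

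Of 11 carbohydrases, the amylase Amy-d rose from 9.13 to 34.2 FPKM, 9 lay above WT, and the median was 0.78. Amy-d has a near-identical partner, Amy-p, and was highest in hsromega66 at 171 FPKM. Mal-A5, a maltase with the largest WT level, was at 218 FPKM in WT against 175 FPKM in Hsp90GFP. Among 6 gut lysozymes, which digest bacterial walls, LysX fell from 38.1 to 4.27 FPKM, and LysS, the most abundant in WT, was at 780 and 1116 FPKM. Neither Amy-d nor LysX was called under the adjustment within the table.

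The LysB cluster on 3L, named after its values were seen, lay far above WT without a call. LysD was at 5.49 FPKM in WT, 1343 in Hsp90GFP, 3460 in hsromega66 and 7363 in the libraries labelled recombinant. Its implied standard error of 7.39 on the log2 scale was nearly as wide as its log2 ratio of 7.69. The p of LysD in the authors' deposited table was 0.03995 beside a statistic of 1.07, so the implied error may not reflect the authors' test. LysB was at 9.52, 795, 2234 and 3682 FPKM in the same order. LysB, LysC, LysD and LysE are near-identical copies, and WT was the low group for both of the genes given.

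The scavenger receptor ninaD, which takes up carotenoids, rose from 0.682 to 16.9 FPKM, the 1 call among 14 genes of sterol transport and scavenger receptors, whose median was 0.05. It was higher still in hsromega66 (84.2 FPKM, q = 0.00565 for the difference from Hsp90GFP in the authors' deposited table) and in the libraries labelled recombinant (338 FPKM). Npc2g, of the Npc2 sterol-binding family with the list's largest WT level, was at 219 FPKM in WT against 152 FPKM in Hsp90GFP. CG15829 and CG8629, named Acbp6 and Acbp4 by RefSeq for acyl-CoA binding proteins, adjoin each other on 3L and rose from 64.1 to 599 FPKM and from 18.9 to 154 FPKM, the second not called under the adjustment within the table. CG3292 and CG3264, named Alp7 and Alp8 for alkaline phosphatases, adjoin on 2R. CG3292 rose from 2.84 to 58.7 FPKM, with 0.353 FPKM in hsromega66, and CG3264, named after its values were seen, rose from 23.2 to 146 FPKM.

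None of 15 genes of fat synthesis, droplets and lipases was called, with Lsd-1, a droplet coat protein, at 523 FPKM in WT against 300.5 FPKM in Hsp90GFP. None of 11 genes of the insulin pathway and nutrient hormones was called either, and Thor, a brake on translation, was at 219 and 199 FPKM. Outside that list and named after its values were seen, CG8317 (Lst), the hormone limostatin that restrains insulin release in flies, rose from 59.3 to 252 FPKM and was at 242 FPKM in hsromega66. The 20 mucins and peritrophic proteins, which line the gut, had 1 call, Muc55B, which rose from 16.7 to 88.1 FPKM. Neither CG8317 nor Muc55B was called under the adjustment within the table. Peritrophin-15a, the most abundant, was at 1167 FPKM in WT against 1080 FPKM in Hsp90GFP.

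Cuticle proteins had 2 calls, both higher. Of 40 cuticle proteins that reached the minimum, out of 120 with rows of their own, Cpr47Eb rose from 3.73 to 33.3 FPKM and Cpr65Ay from 2.78 to 26.2 FPKM, with 21 above and 19 below WT. Cpr65Ay was not called under the adjustment within the table. Cpr47Eb, Cpr47Ec and Cpr47Eg lay in a run of 4 adjoining genes that were each at least 1.5-fold above WT. The list spread widely, from -1.89 to 2.86, with 10 genes at least 2-fold higher and 7 at least 2-fold lower, beside 4.54% and 3.25% of all genes. Among 25 genes of chitin synthesis and turnover, the chitinase Cht4 rose from 1.11 to 14.4 FPKM, and Idgf4, the most abundant, was at 241 FPKM in WT against 248 FPKM in Hsp90GFP. Next to Cht4, the antisense RNA CR44703 rose from 6.91 to 64.4 FPKM. The kit keeps strand, but whether the authors' counting used it is not given, so reads of overlapping genes may not have been told apart.

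**Figure D4:**
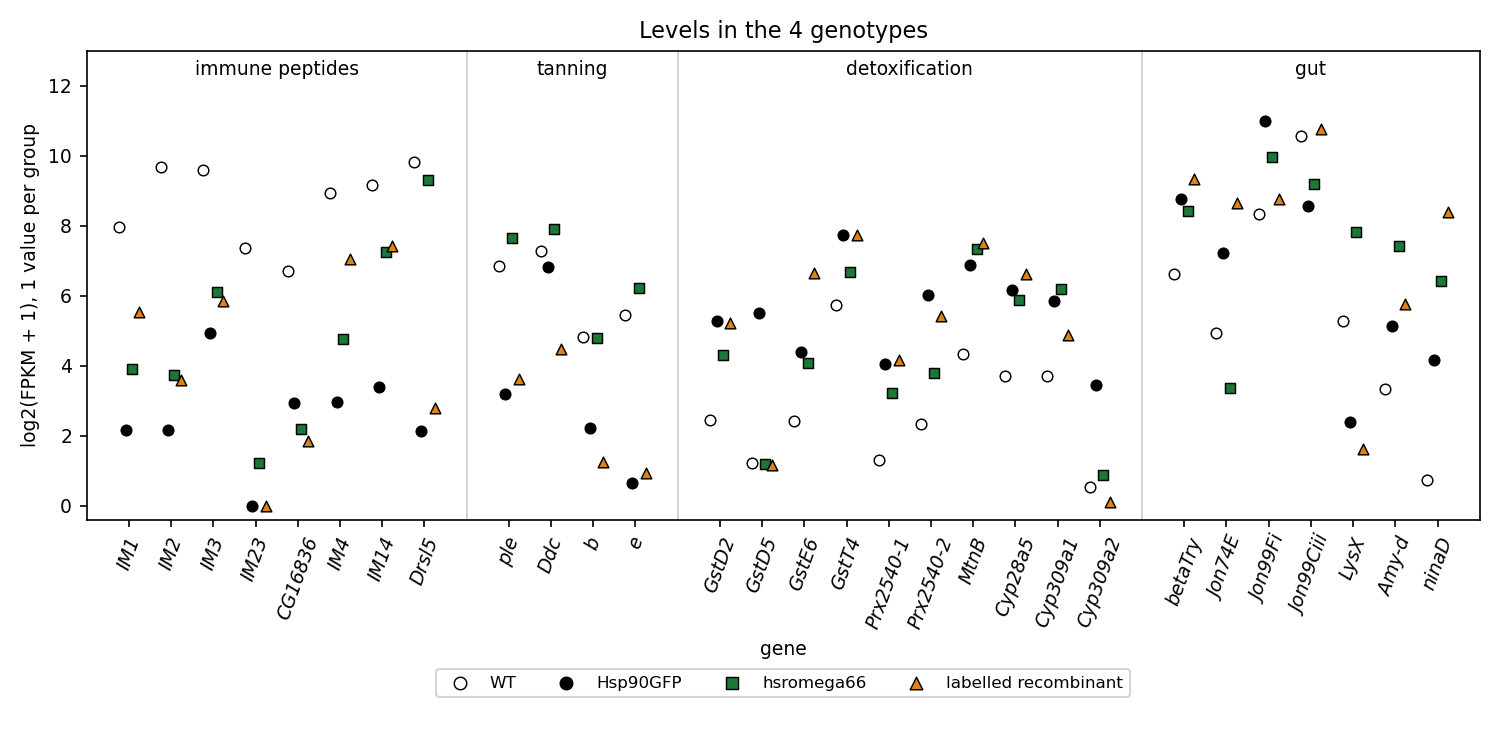
Levels as log2(FPKM + 1), 1 value per group (y axis), of immune, tanning, detoxification and gut genes (x axis) in the 4 genotypes. The Bomanin and Daisho genes are highest in WT, ple, b and e are low in Hsp90GFP and the libraries labelled recombinant, and GstD5 is high in Hsp90GFP alone; Ddc was chosen after its values were seen.

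Core cellular machinery held no called gene, beside 1.50% of all genes, a share at which single lists of this size would hold few calls or none. None of 83 cytoplasmic ribosomal protein genes was called, and their log2 ratios ran from -0.42 to 0.59 around a median of -0.04. That median took the other sign on centring. RpL41, the most abundant, was at 9170 FPKM in WT against 8439 FPKM in Hsp90GFP. Of 70 mitochondrial ribosomal protein genes, 57 lay below WT with a median of -0.20 and no call. The 19 genes of the respiratory chain had a median of 0.09 and the 22 subunits of the vacuolar proton pump 0.06. Glycolysis (19 genes, median -0.07), cell cycle and replication (27 genes, -0.08) and the RNA-binding proteins of omega speckles (25 genes, -0.23) had no call either. Within these lists the most abundant genes in WT lay close to it: mRpS5 was at 95.3 FPKM in WT against 88.7 FPKM in Hsp90GFP, ATPsyn-beta at 481 and 540 FPKM, Vha16-1 at 663 and 701 FPKM and Hrb27C at 221 and 188 FPKM.

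Lists that mark single tissues differed in how close they lay to WT. Among lists described above, glue genes summed to 46590 FPKM in WT against 28659 FPKM in Hsp90GFP. Serum and fat body genes summed to 62106 and 48642.5 FPKM, and hemocyte and melanisation genes to 565 and 859 FPKM. Single genes weigh heavily in such sums. The first sum includes Lsp1gamma, at 12858 FPKM in WT against 1.62 FPKM in Hsp90GFP, and that list's median was -0.10. The second includes the prophenoloxidases PPO1 and PPO2, which lay above WT, while 9 of its 13 genes lay below WT with a median of -0.15. The summed level of the 21 muscle sarcomere members was 11731 FPKM in WT against 14195 FPKM in Hsp90GFP, with 18 above WT, a median of 0.20 and no call. The 11 imaginal disc genes summed to 141 and 126 FPKM, the 6 tracheal genes to 316 and 315 FPKM, and the 8 Malpighian tubule genes to 110 and 103 FPKM. The 4 neuron genes had a median of 0.09, with the synaptic gene Syt1 the most abundant at 15.1 and 22.95 FPKM, the 11 odorant-binding proteins had one of 0.20 and the 23 tetraspanins one of 0.28, all without a call. Of 28 testis and male genes, 22 lay below WT, and Mst84Db, a sperm tail protein gene, fell from 57.4 to 12.6 FPKM, not called under the adjustment within the table. roX1, a dosage compensation RNA made in males with the largest WT level of that list, was at 106 FPKM in WT against 183 FPKM in Hsp90GFP, so testis genes and roX1 did not lie on the same side. The part of the sex makeup of the pools in these values was not tested.

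The 47 lists covered 877 of the 7686 genes and held 39 of the 115 calls. The lists were chosen with earlier results of these data known, so their larger share of the calls than of the genes is not a result. The other 76 calls lay outside them, and 27 lists had no call. Over all genes 1.50% were called. Of the 115 called genes, 72 carry a CG or CR symbol. CG10073 had the largest rise, from 0.234 FPKM in WT to 65.1 FPKM in Hsp90GFP, with 6.67 FPKM in hsromega66 and 69.4 FPKM in the libraries labelled recombinant. It was therefore high in both groups labelled with the construct, and Hsp90GFP differed from hsromega66 (q = 0.00144 in the authors' deposited table). It was also called above WT in hsromega66 (q = 0.0114 in the authors' deposited table). Its rise in Hsp90GFP was not called under the adjustment within the table. CG13947 rose from 5.44 to 87.8 FPKM, with 6.18 FPKM in hsromega66 and 23.9 FPKM in the libraries labelled recombinant. CG3397 rose from 4.16 to 130 FPKM and was at 105 FPKM in hsromega66, so it was not high in Hsp90GFP alone.

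On the lower side, CG7924 fell from 413 to 0.617 FPKM and its neighbour CG7906 on 3L from 136 to 5.40 FPKM. CG7924 was at 249 FPKM in hsromega66 and 0.593 FPKM in the libraries labelled recombinant. CG9822 fell from 58.5 to 0.872 FPKM and CG13606 from 36.7 to 1.42 FPKM, with 89.8 and 47.9 FPKM in hsromega66. These 4 genes were thus low in Hsp90GFP and not in hsromega66, and each differed between those groups (q from 0.00144 to 0.0151 in the authors' deposited table). CG34193 fell from 133 to 0.371 FPKM and CG4757 from 93.6 to 2.00 FPKM. Of these 6 falls, only those of CG7906 and CG4757 were called under the adjustment within the table. The files and RefSeq give these CG genes no other name.

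Further rises were CG8665, from 7.49 to 66.2 FPKM, and CG14850, named Jig by RefSeq, from a value listed at 0 to 7.78 FPKM. Non-coding RNAs were also among the calls. CR44701, a long non-coding RNA, was listed at 0 in WT and was at 11.6 FPKM in Hsp90GFP, 0.116 FPKM in hsromega66 and 0 in the libraries labelled recombinant. The antisense RNA CR45629 rose from 36.8 to 349 FPKM and was at 479 FPKM in hsromega66, and it was not called under the adjustment within the table. The alphagamma-element RNA CR32865, from a heat shock locus and chosen after its values were seen, rose from 1.35 to 12.4 FPKM, and it has repeated copies among which reads may have been split.

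Called genes often lay next to each other. Of the 115, 32 (27.8%) had another called gene starting within 10 kb, against 246 (3.25%) of the 7571 other genes that had a called gene that near. The 32 genes formed 14 clusters, and in 12 of them every called gene moved one way. The largest held 6 Bomanin genes within 7.60 kb on 2R, and the other clusters were pairs such as GstD2 with GstD5, Cyp309a1 with Cyp309a2, and CG7924 with CG7906. In the pairs CG8157 with CG8160 and CG34193 with CG4847, 1 gene rose and its neighbour fell. Neighbouring copies can share reads, so the genes of a cluster are not independent of each other.

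By chromosome arm, 20 genes rose and 12 fell among 1616 on 2R, 21 rose and 10 fell among 1900 on 3R, and 13 rose and 13 fell among 1516 on 3L. On 2L the counts were 12 and 6 among 1419. The X had the smallest share of the large arms, with 3 rises and 5 falls among 1168 (0.685%), and none of 67 genes on chromosome 4 was called.

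Small RNA genes spread most widely without a call. The 278 members that are snoRNAs or other small RNAs had a median absolute log2 ratio of 0.81, against 0.21 for the other genes, and none was called. Of the 91 genes that differed by at least 8-fold without a call, 64 were small RNAs, and 59 small RNAs were listed at 0 in 1 group. A value listed at 0 in these tables does not show that the RNA is absent.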

How the data were processed

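RNA of 8 whole-larva libraries, 2 per genotype and 5 pooled larvae each, was made with a stranded kit that removes ribosomal RNA with human, mouse and rat probes, and sequenced as 50 bp paired reads over 2 lanes, per the labels' protocols. TopHat, Bowtie, Cufflinks and Cuffdiff 2.1.1 with dm6 are named in the submitters' processing notes; the sources used here give no other version, no annotation and no counting strand. The authors deposited 1 FPKM per gene and group, per the file headers, with Cuffdiff's test statistic (a score), p-value and q-value. Depth is unknown, and p-values measure the spread between these libraries only, which may be technical.

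Members were rows of 1 symbol with status OK and at least 5 FPKM in either group; 637 rows merge several genes, and 22 rows called in the authors' deposited table were left out, 6 as merged and 16 below the minimum. Log2 ratios were recomputed with a pseudocount of 1 FPKM, which understates changes of low genes; folds are ratios of FPKM. Calls were the authors' q-value under 0.05, since no test over samples can be run on 1 value per group. Lists are described by counts and medians with no test. The members and the 47 lists were chosen with earlier results of these data known. Named genes were Hsp83, Hsromega, the 15 highest and 15 lowest called ratios, up to 6 called members of lists with at least 2 calls, and in other lists the called member and the one with the largest WT level; others are said to be chosen after their values were seen. Symbols matched RefSeq (Release 6 plus ISO1 MT) for 7595 of 7686 members (98.8%), and the names of 2 members had been turned into dates. Values were computed with pandas 2.3.3 and scipy 1.17.1 on numpy 2.4.6 (Python 3.11.15), drawn with matplotlib 3.10.9, and the scripts were tested on simulated data. Alternatives were a stricter q, other adjustments and tests, other minimums and pseudocounts, centring, and merged rows kept.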

Additional observations from a re-analysis of the deposited data

How the results depend on the processing

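The number of calls depended on the test. Against 69 higher and 46 lower, q under 0.01 in the authors' deposited table gave 32 and 28, and adjusting the deposited p-values by Benjamini-Hochberg within the table gave 23 and 22. A z test on the deposited statistic gave 18 and 30, and 19 and 30 with ratios centred on the median (10 and 17 of the first pair were among the deposited calls). It kept 27 of the 115 calls and lost 82, and the others had no statistic. Which tests entered the authors' adjustment is not stated, and the cause of these differences was not tested. Of the 115 called genes, 45 remained called under the adjustment within the table and 60 at q under 0.01. Other minimums, merged rows kept, and, chosen after seeing the data, small RNAs or the genes near Hsp83 left out kept the counts within 1.5 times. Counts of genes at least 2-fold higher stayed between 247 and 426, and lower between 184 and 320. Centring turned the sign of 4 list medians (co-chaperones, proteasome, mucins and cytoplasmic ribosomal proteins), and pseudocounts of 0.1 or 5 FPKM turned none but moved a median by up to 2.84 and 1.99. With them the drosomycin median was -7.65 and -3.86, that of gut lysozymes 5.998 and 1.39, and that of the short immune peptides -5.29 and -4.28. No paired analysis was possible because the tables hold 1 value per group, and for the same reason leaving out each library was not run. With 2 pools per group and no values per library, a difference that rests on 1 pool cannot be seen, and no difference under 3.18-fold was called.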
